A study of Chlamydomonas reinhardtii with 24 samples.

Results

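The uvr8 strain of the green alga Chlamydomonas reinhardtii was compared with 2 other mutant strains, co and hy5, in libraries from cells shielded from UV-B. The comparison used 9 of the 24 libraries of the series, 3 of uvr8 against 6 of co and hy5, chosen by genotype and treatment alone. It asked which baseline expression differences belonged to the uvr8 strain rather than to the mutants in common. The series measured poly(A) RNA in 4 genotypes, each with and without UV-B, in 3 libraries per group. All strains carry CC5325 as their cell type in the labels. WT is CC5325 itself, uvr8 is LMJ.RY40202.156289, co is LMJ.RY402.149321 and hy5 is LMJ.RY402.194448, so each mutated gene is represented by 1 strain and a lesion cannot be told apart from anything else in which its strain differs. The series text also calls the co and hy5 genotypes CrCo and CrBlz3. Every culture was grown in acetate medium (TAP) in continuous light at 20 µmol photons per square metre and second, then washed into minimal medium (HSM) and kept in dim light for at least 1 h. Baseline cells stayed in dim light under a UV-blocking filter (half-maximal at 360 nm). The UV-B libraries, used here as a second set, came from cells given UV-B of 0.2 mW per square centimetre through a filter half-maximal at 311 nm, for 1 h by the series text. The labels do not say whether the libraries of a group came from separate cultures, so p-values measure the spread between these libraries, which may be technical.

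UVR8 is a UV-B photoreceptor. On absorbing UV-B its dimer falls apart and the monomer binds the COP1 and SPA1 ubiquitin ligase, which otherwise holds back transcription factors such as the CONSTANS protein CO and the bZIP protein HY5. In Chlamydomonas this pathway raises genes of photoprotection, among them the quencher proteins LHCSR1 and PSBS. Separately, chloroplasts under membrane or protein stress make the small heat shock proteins HSP22E and HSP22F, the membrane-shaping protein VIPP2 and the protease DEG1C. Cells short of sulfate make plasma membrane sulfate transporters, of which SLT1, SLT2 and SULTR2 are the known inducible members. Gene names here stand for the locus identifiers printed beside them and could not be checked against an annotation.

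The 9 libraries held 19267716 to 25749685 counts, and their 50 most abundant genes took 24.4% to 29.2% of them. Replicate libraries differed well beyond sampling noise, with a chi-square per degree of freedom of 21.5 to 127 over 9 pairs. Libraries 1 and 2 differed most in each strain, at 127 in uvr8, 96.7 in co and 121 in hy5, so unevenness was not particular to uvr8. Of the 148 genes found below to be higher in uvr8 than in each other mutant, 117 had their highest uvr8 value in library 2 and 110 their lowest in library 1. These genes were chosen on the same uvr8 values, and no such count over all genes was made. Under UV-B, 116 of these 148 had their lowest uvr8 value in library 3. Values are therefore given by library.

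The mutated genes were examined first. UVR8 (Cre05.g230600) was at 25.5, 23.6 and 24.6 CPM in uvr8, where CPM is the count scaled to a common library size. It was at 39.6, 34.2 and 36.5 CPM in co, and at 40.0, 36.1 and 35.2 CPM in hy5. All 3 uvr8 values lay below all 6 others, yet the transcript remained well above 0. Such a lack of overlap was common, with uvr8 below all 6 others in 1014 of 13613 tested genes (7.45%) and above them in 1272 (9.34%). For UVR8 the log2 fold change of uvr8 against the mean of co and hy5 was −0.59 (SE 0.16, adjusted p = 0.0240). A gene is named as called where its adjusted p in edgeR's quasi-likelihood test, corrected over all genes, was under 0.05. The call of UVR8 was lost without co library 1 or without uvr8 library 2 or 3 (adjusted p up to 0.133). Against co alone the adjusted p was 0.0535 and against hy5 alone 0.0680. With replicate number as a block in the fit, UVR8 was called against both (adjusted p = 0.00474 for the larger of their p-values). Nothing in the labels describes the lesion, so the level of this transcript does not check the uvr8 label. CO (Cre06.g278159) was at 9.09, 6.84 and 7.37 CPM in co, against 666, 498 and 553 CPM in uvr8 and 672, 462 and 487 CPM in hy5. HY5 (Cre06.g310500) was at 0.690, 1.06 and 0.721 CPM in hy5, against 5.76, 2.00 and 2.04 CPM in uvr8 and 6.54, 3.66 and 5.12 CPM in co. The co and hy5 libraries were thus each low in the gene they are named for. CO accordingly passed the test as higher in uvr8 than in the mean of the others (log2 fold change 3.14), with no difference called from hy5 (0.08, adjusted p = 0.852).

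Other genes of the UV-B pathway were not called at baseline. COP1 (Cre02.g085050) was at 9.06, 12.8 and 6.85 CPM in uvr8 and overlapped the 8.34 to 13.3 CPM of the other mutants. SPA1 (Cre13.g602700) was at 16.1, 13.8 and 13.1 CPM in uvr8 against 15.8 to 21.9 CPM. None of the 6 tested genes of the quenching and LHC-like list passed the test. Their log2 fold changes ran from −0.17 for LHL4 (Cre17.g740950), an early light-induced-like protein bound to photosystem II, to 0.69 for LHCSR3A (Cre08.g367500), a quencher of excess light energy. LHCSR1 (Cre08.g365900) was at 6.20, 36.6 and 6.07 CPM in uvr8, at 0.084, 2.01 and 1.60 CPM in co, and at 6.38, 186 and 72.6 CPM in hy5. The uvr8 values of LHCSR1 lay above those of co and overlapped those of hy5 (adjusted p = 0.706 against their mean). PSBS1 (Cre01.g016600) and PSBS2 (Cre01.g016750) stayed under 1 CPM in all 3 uvr8 libraries.

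Of 13613 genes tested, 1047 were called between uvr8 and the mean of co and hy5, 697 higher and 350 lower in uvr8. That is 7.69% of genes, 5.12% higher and 2.57% lower. The counts at 2-fold or more were 311 higher and 141 lower. Setting each of the other mutants apart in the same way called 108 genes for co (0.793%) and 32 for hy5 (0.235%), or 725 and 155 with the block. These 3 comparisons use the same 9 libraries, and the difference between their counts was not tested. Because a difference from a mean can come from 1 of its groups, a stricter rule asked that uvr8 differ in one direction from co and from hy5, each tested alone. Against co alone 836 genes were called (6.14%) and against hy5 alone 458 (3.36%), or 2462 and 1403 with the block. The stricter rule held for 201 genes (1.48%), 148 higher (1.09%) and 53 lower (0.389%). Their median log2 fold change was 1.62 for the higher and −1.56 for the lower genes. With replicate number as a block, 2683 genes were called against the mean (52.7% of them higher) and 750 by the stricter rule. Single libraries moved these counts strongly, to 267 and 54 without uvr8 library 2, 470 and 68 without uvr8 library 3, and 1050 and 342 without uvr8 library 1. Without 1 library of co or hy5 the stricter count was 70 (co library 1, hy5 library 3), 75 (co library 3), 92 (co library 2), 109 (hy5 library 1) and 114 (hy5 library 2).

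Among 209 tested members of 22 gene lists, 21 (10%) were called against the mean, beside 7.69% of all genes, and 10 by the stricter rule. With the block these counts were 35 (16.7%, beside 19.7% of all genes) and 19. The 21 genes called against the mean without the block fell into 9 lists. The lists were chosen with earlier results of these data known. The list of photosystem II assembly and plastid protein quality control held 5 of 12 tested members higher and 0 lower, with a median log2 fold change of 0.12 beside 0.00 over all genes. The 5 were HSP22E, HSP22F, VIPP2, DEG1C and VIPP1, and the first 4 also passed the stricter rule.

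HSP22E (Cre14.g617450), a small heat shock protein of the chloroplast, was at 60.9, 558 and 282 CPM in uvr8. It was at 2.56, 9.46 and 9.08 CPM in co and at 1.64, 5.23 and 4.18 CPM in hy5. The lowest uvr8 library exceeded the highest of the 6 others, with library 2 highest and library 1 lowest in each of the 3 strains. The log2 fold change was 5.88 (SE 0.73, adjusted p = 5.71e-05). HSP22F (Cre14.g617400), its close relative in the same organelle, was at 61.2, 669 and 309.7 CPM in uvr8, with 1.59, 10.01 and 5.94 CPM in co and 1.21, 5.98 and 3.90 CPM in hy5. The groups did not overlap, and the log2 fold change was 6.21 (SE 0.82, adjusted p = 9.59e-05). Reads shared by these similar genes may have been split between them or lost in counting.

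VIPP2 (Cre11.g468050), a stress-responsive relative of the thylakoid-shaping protein VIPP1, was at 18.7, 245 and 99.04 CPM in uvr8. The co libraries held 4.23, 9.14 and 5.56 CPM and the hy5 libraries 3.45, 6.34 and 3.13 CPM. Library 1 of uvr8 lay nearer to the other strains than to library 2, without overlap (log2 fold change 4.53, SE 0.66, adjusted p = 0.000262). DEG1C (Cre12.g498500), a protease of the chloroplast stroma, was at 114, 329.7 and 241 CPM in uvr8 against 12.4, 32.3 and 25.4 CPM in co and 11.3, 25.3 and 21.7 CPM in hy5. All uvr8 libraries were above all others (3.422, SE 0.51, adjusted p = 0.000387). VIPP1 (Cre13.g583550) itself was at 274, 566 and 413 CPM in uvr8 and between 168 and 195 CPM in the other mutants. Its log2 fold change of 1.17 (SE 0.27, adjusted p = 0.00986) lost the call without uvr8 library 2 (adjusted p = 0.133), and VIPP1 passed the stricter rule with the block (0.0328, against 0.0767 without it). The 7 remaining list members were not called, with log2 fold changes of −0.29 to 0.12. FTSH2 (Cre17.g720050), a thylakoid protease of photosystem II repair, was at 408, 449.8 and 394 CPM in uvr8 against 412 to 597 CPM. HCF136 (Cre06.g273700), an assembly factor of photosystem II, was at 182, 231 and 189.97 CPM against 159.8 to 229 CPM.

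**Figure D1:**
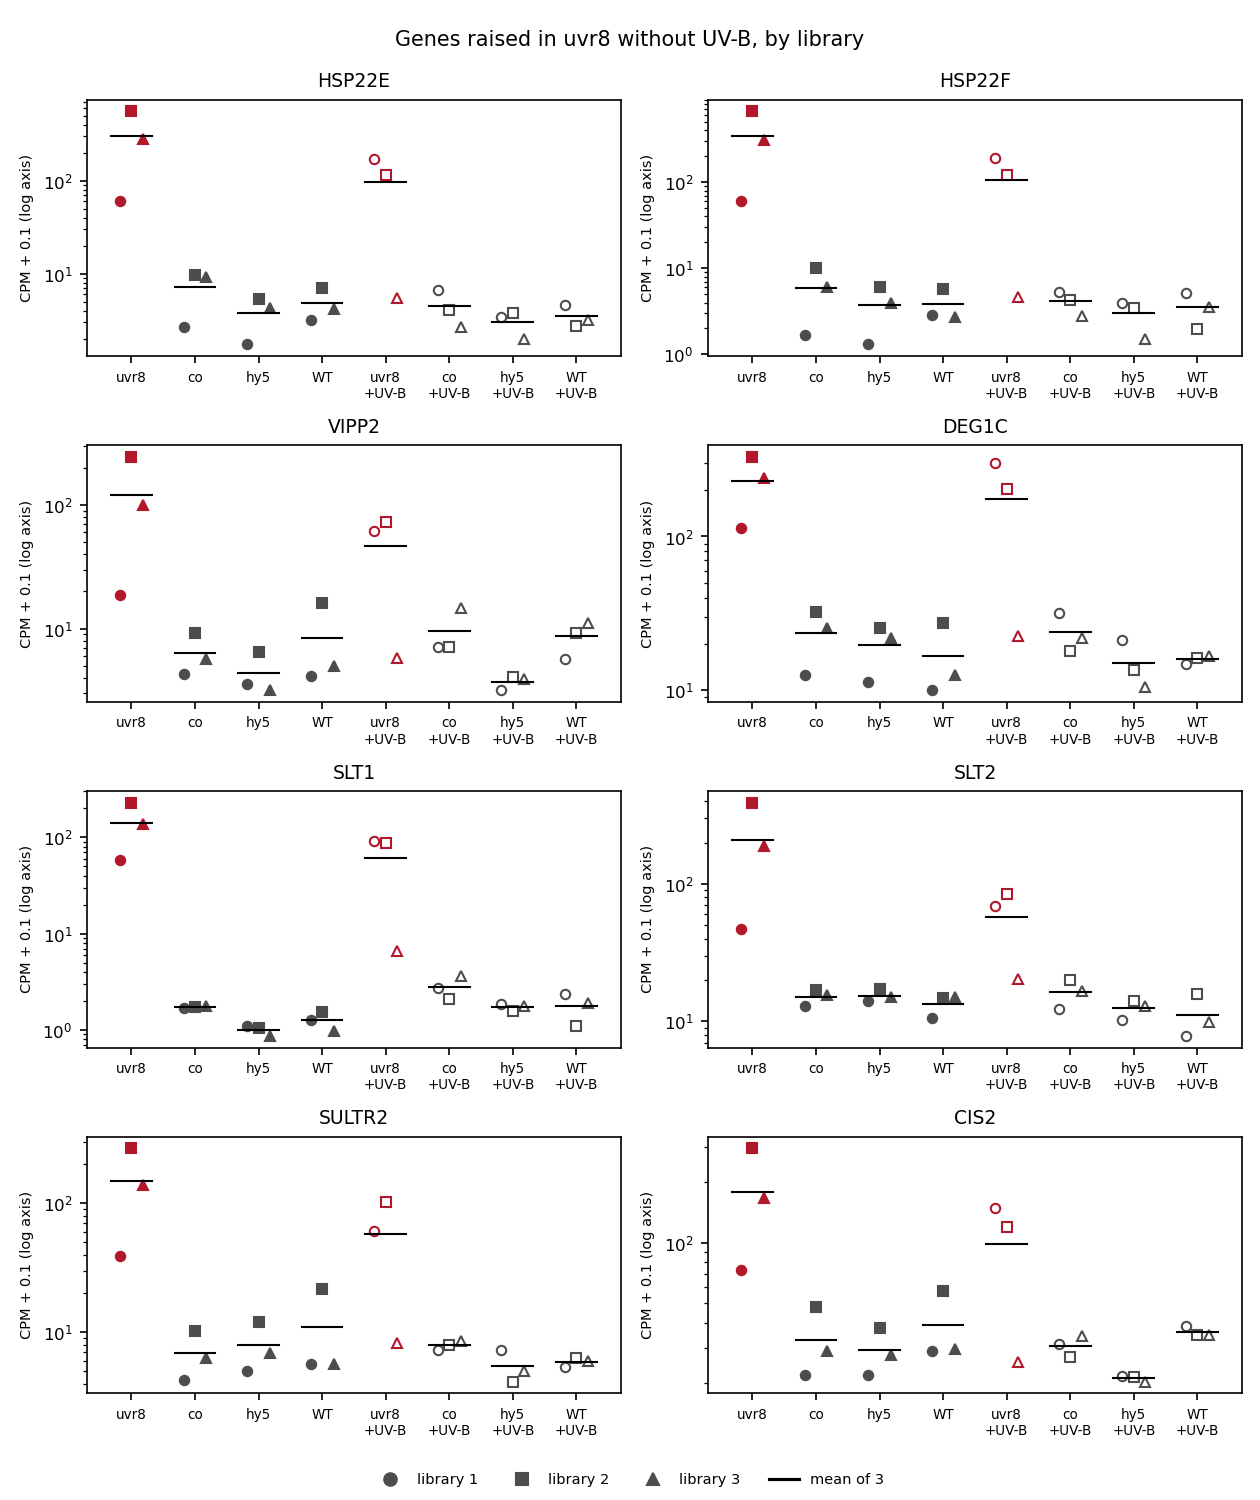
CPM plus 0.1 on a log axis for 8 genes in all 24 libraries, with uvr8 in red, the other strains in grey, filled symbols without UV-B, open symbols with UV-B, a symbol shape per library number and a bar at the mean of 3 libraries. Without UV-B each uvr8 library lies above every co and hy5 library, for HSP22E at 60.9 to 558 CPM against 1.64 to 9.46 CPM, while under UV-B library 3 of uvr8 falls to 5.36 CPM.

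General chaperones were higher as well, by smaller steps. The list of heat shock genes held 5 of 8 tested members called higher, beside 5.12% of all genes (list median log2 fold change 1.12). The 5 were HSP70B, HSP70C, HSP90A, CLPB3 and HSP60A. With replicate number as a block all 8 were called higher, beside 19.7% of all genes called in either direction. HSP70C (Cre09.g393200), a mitochondrial chaperone, was at 88.1, 159.9 and 127 CPM in uvr8 against 24.8 to 66.3 CPM in the other mutants. The groups did not overlap, and HSP70C passed the stricter rule (1.39, SE 0.26, adjusted p = 0.00283, and 0.0430 by the stricter rule). No other member did so without the block, whereas HSP70B (0.0353), CLPB3 (0.0437), HSP60A (0.0405) and HSP90C (0.0470) also did with it. HSP70B (Cre06.g250100), the chloroplast chaperone that works with the VIPP proteins, was at 840.2, 1089 and 1039 CPM against 379 to 588 CPM (0.97, SE 0.23, adjusted p = 0.0124). CLPB3 (Cre02.g090850), a chloroplast protein disaggregase, was at 85.9, 206 and 126 CPM against 67.2 to 81.5 CPM, with library 1 just above the others (0.93, SE 0.22, adjusted p = 0.0137). HSP60A (Cre06.g309100), a chaperonin, was at 121, 145 and 151 CPM against 50.8 to 69.5 CPM (1.26, SE 0.33, adjusted p = 0.0237). HSP90A (Cre09.g386750), the cytosolic HSP90, was at 1254, 1986 and 1839.9 CPM against 342 to 911 CPM (1.29, SE 0.35, adjusted p = 0.0276). The calls of HSP70B and HSP60A were lost without uvr8 library 2 or 3, that of HSP60A also without co library 3, that of CLPB3 without uvr8 library 2, and that of HSP90A without uvr8 library 2 or 3, co library 1 or hy5 library 1.

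Part of the list moved with the library number. HSP70A, HSP70C, HSP90A, HSP90B and HSP90C were lowest in library 1 in uvr8, co, hy5 and WT, whereas HSP60A and CLPB3 were highest in library 1 in co, hy5 and WT. HSP70A (Cre08.g372100), a cytosolic chaperone, was at 797, 1852 and 1569 CPM in uvr8, 279, 876 and 636 CPM in co, and 199, 775 and 664 CPM in hy5. Library 1 was the lowest of each strain, and uvr8 library 1 lay inside the range of co. HSP70A was not called (1.30, adjusted p = 0.0641) but passed with replicate number as a block (adjusted p = 0.0264). HSP90B (Cre02.g080650) of the endoplasmic reticulum (adjusted p = 0.0659) and HSP90C (Cre12.g514850) of the chloroplast (adjusted p = 0.0531) passed with the block too, at 0.00465 and 0.00709. All 3 also passed with DESeq2 (adjusted p 0.0376, 0.0399 and 0.0346) and without all libraries numbered 1 (0.00578, 0.0307 and 0.0290). The part of the library number in the baseline differences of single genes was not tested beyond these fits.

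Sulfate transporter genes showed the next group of large differences. Of 10 tested genes of sulfur, phosphate and iron supply, 3 were called higher and 0 lower, beside 5.12% and 2.57% of all genes. All 3 are sulfate transporters of the plasma membrane. SLT1 (Cre12.g502600), a sodium and sulfate cotransporter, was at 57.9, 229 and 136 CPM in uvr8. It was at 1.59, 1.65 and 1.67 CPM in co and at 0.991, 0.944 and 0.769 CPM in hy5. The other mutants were tightly grouped, and the groups were far apart (log2 fold change 6.85, SE 0.55, adjusted p = 2.49e-07). SLT2 (Cre10.g445000), of the same transporter family, was at 46.9, 391 and 187 CPM in uvr8 against 12.8, 16.8 and 15.6 CPM in co and 13.9, 17.2 and 14.9 CPM in hy5. The lowest uvr8 value was above the others (3.78, SE 0.43, adjusted p = 2.54e-05). SULTR2 (Cre17.g723350), a proton and sulfate cotransporter, was at 39.1, 266 and 139 CPM in uvr8 against 4.19, 10.05 and 6.21 CPM in co and 4.91, 11.9 and 6.83 CPM in hy5. Again there was no overlap (4.33, SE 0.59, adjusted p = 0.000151).

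ARS1 and ARS2, the other sulfur-deprivation genes of the list, did not pass at baseline. ARS1 (Cre16.g671400), an arylsulfatase released by sulfur-starved cells, was at 3.34, 4.52 and 3.43 CPM in uvr8 and 1.72 to 2.93 CPM in the other mutants. The groups did not overlap, but ARS1 was not called (0.70, adjusted p = 0.0946). It was called higher in uvr8 against WT (1.11, adjusted p = 0.0349) and against co and hy5 under UV-B (1.37, adjusted p = 0.00102). ARS2 (Cre16.g671350), its relative, was at 2.16, 8.76 and 4.55 CPM against 3.21 to 5.78 CPM, so the groups overlapped (0.31, adjusted p = 0.658). The phosphatase PHOX (Cre04.g216700), the phosphate regulator PSR1 (Cre12.g495100) and the iron genes FOX1 (Cre09.g393150), FTR1 (Cre03.g192050) and FEA1 (Cre12.g546550) had log2 fold changes of −0.90 to 0.30 and were not called. FOX1, a multicopper ferroxidase, was the lowest of these at −0.90 and passed with replicate number as a block (adjusted p = 0.00588).

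All 9 fits that left out 1 library kept the calls of HSP22E, HSP22F, VIPP2, DEG1C, SLT1, SLT2 and SULTR2 against the mean of co and hy5. Leaving out 1 library took the stricter rule's adjusted p above 0.05 for HSP22F (up to 0.0565), VIPP2 (0.112), DEG1C (0.0876), SULTR2 (0.0586) and HSP70C (0.276), and left HSP22E (0.0479), SLT1 (0.00114) and SLT2 (0.0190) below it.

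Members of 5 further lists were higher, with only 1 or 2 called in each list, beside 7.69% called over all genes. CIS2 (Cre03.g149250), the citrate synthase of the glyoxylate cycle, was at 72.9, 294 and 167 CPM in uvr8 against 21.9, 47.8 and 28.8 CPM in co and 21.7, 37.6 and 27.5 CPM in hy5. CIS2 had no overlap (2.53, SE 0.40, adjusted p = 0.000705), and was the called gene among 9 tested for acetate use, whose median was −0.80. With the block 1 of the 9 was higher and 1 lower (22.2%, beside 19.7% of all genes). APX1 (Cre02.g087700), an ascorbate peroxidase that removes hydrogen peroxide, was at 262, 321 and 306 CPM in uvr8 against 128 to 181 CPM (1.00, SE 0.16, adjusted p = 0.000705). APX1 was the called gene among 13 tested for reactive oxygen defence. With the block 5 of the 13 were higher and 1 lower (46.2%, beside 19.7% of all genes). Like CIS2, APX1 passed the stricter rule (0.0119, with 0.0203 for CIS2). Leaving out 1 library took that value to at most 0.0741 for APX1 and 0.159 for CIS2.

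PGR5 (Cre05.g242400), a protein of cyclic electron flow, was at 304, 314 and 256 CPM in uvr8, against 159, 108 and 131 CPM in co and 233, 182 and 157 CPM in hy5. It was higher than in the mean of both (0.87, SE 0.17, adjusted p = 0.00413) and than in co (adjusted p = 0.00386), with an adjusted p of 0.119 against hy5. In chlorophyll synthesis 2 of 20 tested genes were higher, or 3 with the block (15%, beside 19.7% of all genes). CHLM1 (Cre12.g498550), which methylates magnesium protoporphyrin, was at 183, 237 and 227 CPM against 82.9 to 131 CPM (0.93, adjusted p = 0.0168). CTH1 (Cre12.g510050), a form of the cyclase that follows it, was at 1898, 1628 and 1864 CPM against 1192 to 1439 CPM (0.47, adjusted p = 0.0221). FBA3 (Cre05.g234550), a chloroplast aldolase and 1 of 14 tested Calvin cycle genes, was at 1151, 1108 and 1282 CPM against 688 to 836 CPM (0.62, adjusted p = 0.0203). The call was lost without uvr8 library 2 or 3 for all of CHLM1, CTH1 and FBA3. For CTH1 it was lost also without uvr8 library 1 or hy5 library 1. Without all libraries numbered 1 the adjusted p was 0.0580 for CTH1 and 0.0556 for FBA3. By the stricter rule CHLM1 (0.106) and FBA3 (0.145) were not called, but both were with the block (0.0489 and 0.00601).

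The other 13 lists, with 106 tested members, held 0 called genes in edgeR's test, beside 7.69% of all genes. Of these members 4 had an unadjusted p under 0.05, beside 3105 of all 13613 genes tested. DESeq2 called 3 of the 106, the antenna gene LHCBM9, the hydrogenase gene HYDA1 and the glutamine synthetase gene GLN1. With the block 3 of the 106 were called, beside 19.7% of all genes. The 13 lists included the antenna proteins of both photosystems, with a median log2 fold change of −0.06 over 11 LHCII genes and −0.02 over 9 LHCI genes. The 13 nuclear photosystem subunits ran from −0.02 to 0.23. The 19 genes of the CO2-concentrating mechanism had a median of 0.04, the 12 of tubulin and cilia −0.03 and the 8 of the cell cycle −0.18.

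**Figure D2:**
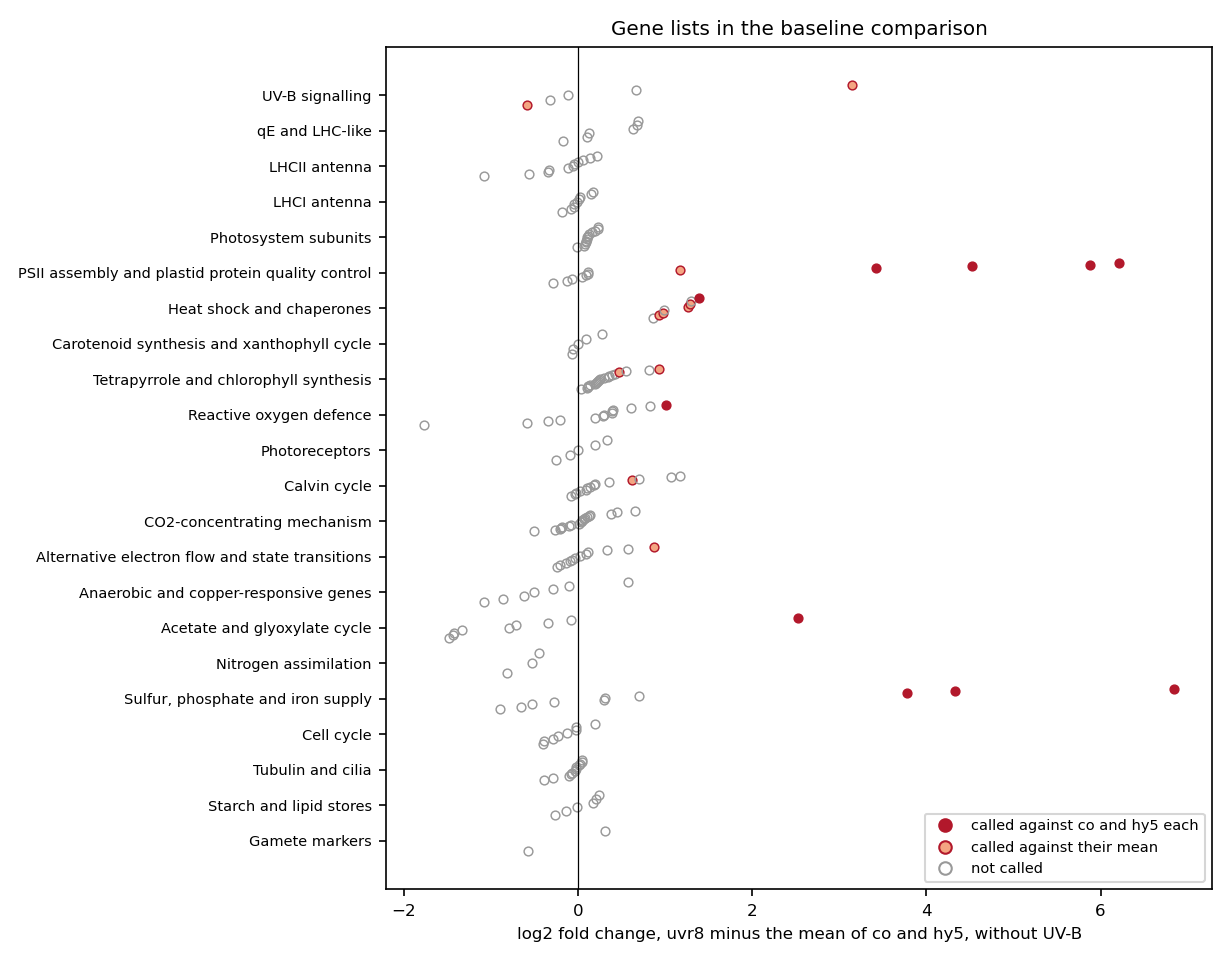
Log2 fold change of uvr8 against the mean of co and hy5 without UV-B for each of 209 tested list members, 1 row per list, with dark red for genes called against co and hy5 each, light red for genes called against their mean and open grey for genes not called. The points past 3 are the plastid stress genes, the sulfate transporters and CO at 3.14, which is light red because it was low in co but not in hy5.

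The genes with the largest differences by the stricter rule, at a mean of at least 1 CPM, included SLT1, HSP22F, HSP22E, VIPP2 and SULTR2 among the 10 highest, which ran from 4.33 to 7.61 on the log2 scale. The other 5 have no name in the lists. Cre12.g537250 was at 1.23, 8.64 and 3.99 CPM in uvr8 and at most 0.065 CPM in co and hy5 (7.61, adjusted p = 5.71e-05). Cre02.g145750 was at 2.2, 12.4 and 7.16 CPM in uvr8 and at most 0.118 CPM in the other mutants (6.61, adjusted p = 5.71e-05). Both repeated the order of the sulfate transporters, with library 2 highest and library 1 lowest.

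The 10 largest decreases ran from −8.08 to −2.64 and none is named in the lists. Cre06.g295600 was at 0.088, 0.120 and 0.043 CPM in uvr8, which was 2, 3 and 1 counts. It was at 22.8, 21.4 and 23.8 CPM in co and at 24.01, 25.2 and 28.6 CPM in hy5. The transcript was thus near 0 in uvr8 alone among the 3 mutants, at 0.352% of the level in co and hy5 (95% exact binomial interval 0.129% to 0.767%, counting error only; log2 fold change −8.08, SE 0.33, adjusted p = 6.84e-12). The WT libraries held 28.7, 19.8 and 23.7 CPM. Under UV-B, uvr8 held 1, 0 and 1 counts, against 17.8 to 29.5 CPM in co and hy5.

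Several more genes were picked out after their values were seen. Cre06.g295650, the next gene in the order of the RefSeq table for assembly v5.5, was also low, with 5 counts over the 3 uvr8 libraries and 108 over the 6 others (−3.21, SE 0.64, adjusted p = 0.00413). The genes on either side of this pair, Cre06.g295550 (−0.28, adjusted p = 0.459) and Cre06.g295700 (−0.34, adjusted p = 0.728), were not called. Cre17.g716026 had 0 counts in every uvr8 library and 1.15 to 1.88 CPM in the other mutants, 220 counts in all. Taking 3 counts over the group as the floor put it 33.8-fold lower in uvr8. The 95% exact binomial interval reached up to 3.66% of the level in co and hy5, counting error only. WT held 1.62, 2.78 and 1.39 CPM of Cre17.g716026, and the uvr8 libraries under UV-B held 3 counts in all.

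Cre06.g298650 was abundant in every other group. It was at 642, 878 and 759.8 CPM in uvr8, at 2738, 2604 and 2724 CPM in co and at 2723, 2787 and 2852 CPM in hy5. No uvr8 library came near the rest (−1.85, SE 0.17, adjusted p = 1.88e-06). In the RefSeq order Cre06.g298750 stands 2 genes further and went the other way, at 33.4, 215 and 129 CPM in uvr8 and 1.09 to 4.34 CPM in the other mutants (5.70, SE 0.71, adjusted p = 6.23e-05). Cre06.g298800, the gene after it, was higher too (2.31, adjusted p = 0.00276), while Cre06.g298700 in between was not called (−0.13, adjusted p = 0.773). Cre10.g452250, among the 10 largest decreases, was at 0.660, 0.920 and 0.954 CPM in uvr8, at 24.4, 45.4 and 21.9 CPM in co, and at 44.7, 78.6 and 41.9 CPM in hy5. The groups did not overlap (−5.59, SE 1.18, adjusted p = 0.00624), though without uvr8 library 2 the adjusted p was 0.0551.

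**Figure D3:**
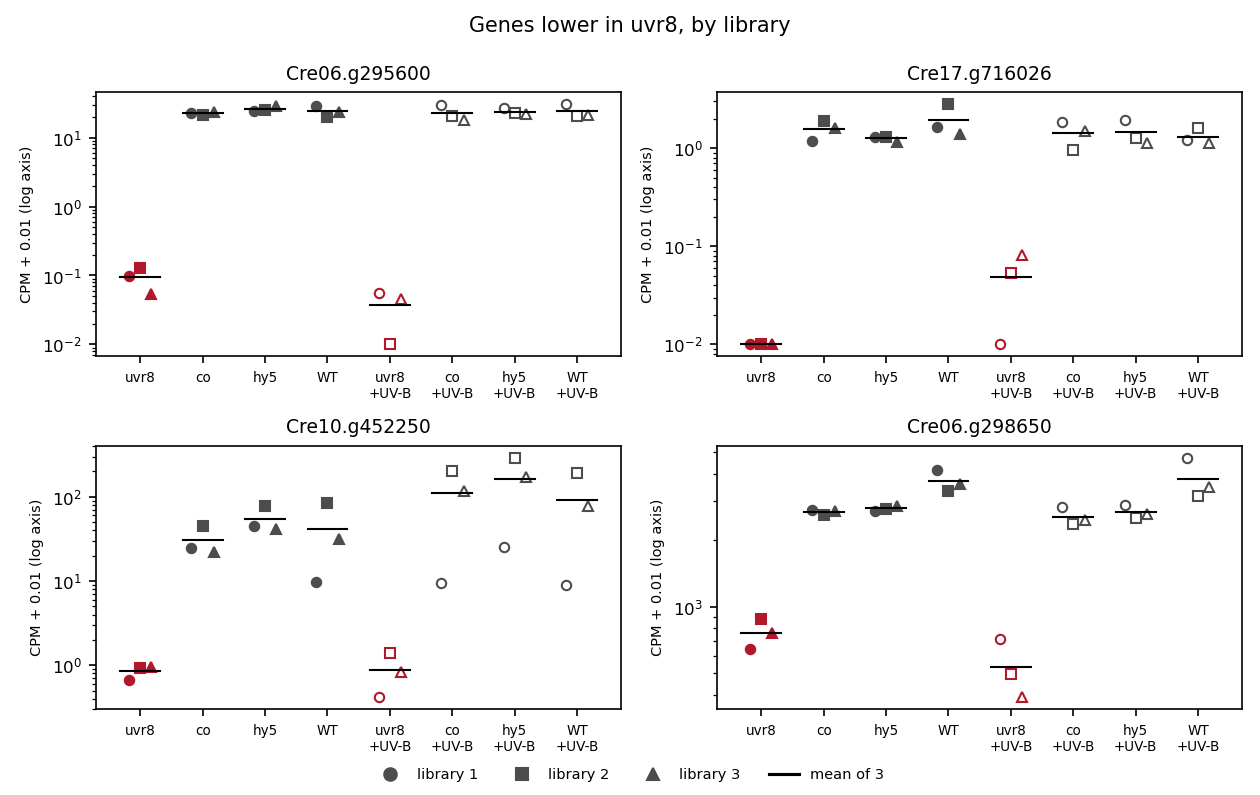
CPM plus 0.01 on a log axis for 4 genes lower in uvr8, in all 24 libraries, with colours, symbols and mean bars as in the plot of raised genes. The uvr8 libraries lie apart from all others with and without UV-B, for Cre06.g298650 at 642 to 878 CPM against 2604 to 2852 CPM in the baseline libraries of co and hy5.

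WT without UV-B gave a further reference. The WT mean was nearer to co and hy5 than to uvr8 in 124 of the 148 genes higher by the stricter rule. It was so in 39 of the 53 lower genes (log2 scale, 0.1 CPM added). These genes were chosen because uvr8 lay outside co and hy5 in the same libraries, which by itself favours such a position of WT. No share over all genes was computed, so these counts do not test whether the differences belong to uvr8. Between uvr8 and WT, 726 genes were called (5.33%), 455 higher and 271 lower, or 2173 with the block. This comparison uses the same uvr8 libraries as the one above, so its values are given side by side only. The log2 fold change against WT was 5.995 for HSP22E, 6.54 for HSP22F, 3.85 for VIPP2, 3.79 for DEG1C, 6.90 for SLT1, 3.96 for SLT2 and 3.76 for SULTR2, and all 7 passed the test. HSP70C was at 85.9, 118 and 92.2 CPM in WT, overlapping uvr8, and differed by 0.34 on the log2 scale (adjusted p = 0.624). HSP70B (0.61, adjusted p = 0.237), HSP60A (0.67, adjusted p = 0.396) and CLPB3 (0.90, adjusted p = 0.0549) were not called either. The same held for VIPP1 (0.86, adjusted p = 0.135), HSP90A (0.71, adjusted p = 0.386) and CHLM1 (0.704, adjusted p = 0.158). PGR5 was at 287, 288 and 184 CPM in WT, overlapping uvr8, and was not called (0.21, adjusted p = 0.658). CIS2 (adjusted p = 0.0117) and APX1 (adjusted p = 0.00146) were called higher in uvr8 than in WT. FBA3 was level with WT (0.01, adjusted p = 0.990), as was CTH1 (0.07, adjusted p = 0.850).

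The UV-B libraries are a second set from the same strains, and they share no library with the baseline comparison. There 1562 genes were called between uvr8 and the mean of co and hy5 (11.5%), 608 higher (4.47%) and 954 lower (7.01%), or 2811 with the block. Of the 148 genes higher at baseline by the stricter rule, 107 (72.3%) were called higher under UV-B, which is 17.6% of the genes called higher there, and 0 were called lower. Of the 53 lower genes, 34 (64.2%) were called lower, 3.56% of the genes called lower there, and 0 were called higher. With the block, 287 of 434 higher genes (66.1%) and 179 of 316 lower genes (56.6%) were called in the same direction, and 12 higher genes were called lower. Each genotype is 1 strain in both sets, so this repeats the strains and not the genotypes.

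The stress and transporter genes repeated in 2 of 3 libraries. HSP22E was at 171, 114 and 5.36 CPM in uvr8 under UV-B, and at 1.87 to 6.62 CPM in co and hy5. SLT1 was at 90.4, 87.1 and 6.59 CPM in uvr8 and at 1.48 to 3.51 CPM in the others. Libraries 1 and 2 stood far above the other strains, while library 3 lay within their range for HSP22E and somewhat above it for SLT1. DEG1C was at 301, 205 and 22.4 CPM, VIPP2 at 61.0, 72.9 and 5.69 CPM, SLT2 at 68.6, 84.1 and 20.2 CPM and SULTR2 at 60.9, 103 and 8.13 CPM in the same libraries. All 6 of these genes passed the test under UV-B, with log2 fold changes from 2.03 for SLT2 to 4.86 for SLT1. The difference between their baseline and UV-B contrasts, tested after the values were seen, was not called for any of them (adjusted p 0.199 to 0.975). Cre06.g298650, lower at baseline, was at 715, 495 and 388 CPM in uvr8 under UV-B, below the 2361 to 2889 CPM of co and hy5 in all 3 libraries. Not every difference repeated, since 41 of the 148 higher genes and 19 of the 53 lower genes were not called there. Under UV-B, HSP70C (0.09, adjusted p = 0.898), HSP70B (0.02, adjusted p = 0.970), CLPB3 (0.28, adjusted p = 0.513) and VIPP1 (0.36, adjusted p = 0.486) were not called. HSP60A (1.25, adjusted p = 0.0166) and HSP90A (1.41, adjusted p = 0.00967) were called higher in uvr8.

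**Figure D4:**
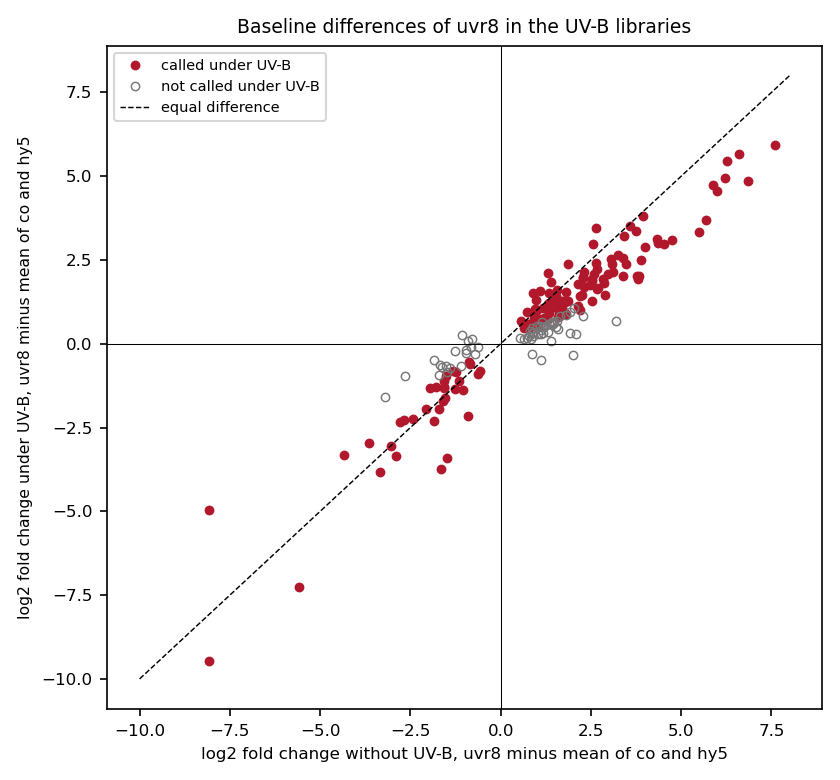
Log2 fold change of uvr8 against the mean of co and hy5 for the 201 genes that differed from both mutants at baseline, without UV-B on the horizontal axis and under UV-B on the vertical axis, with filled red points for the 141 genes called under UV-B. No called point lies in an opposite quadrant, and most of the large positive values lie below the dashed line of equal differences.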

How the data were processed

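RNA was extracted with RNeasy and DNase, and libraries were made with the Illumina TruSeq stranded mRNA kit, per the labels' protocols. The authors deposited raw read counts per gene, whole numbers without normalization, for 14621 genes in 24 libraries. The tools listed in the submitters' processing notes are STAR 2.7.10b, HTSeq 0.11.3, edgeR 3.42.4 and bcl2fastq 2.20.0, without their roles. Not given in the sources used here are the strand setting and the treatment of reads with several matches, so reads of near-identical or antisense genes may be misassigned.

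Groups and replicate numbers came from the sample titles. Counts were filtered with filterByExpr (minimum count 10, minimum total 15), which left 13613 genes, scaled by TMM (factors 0.928 to 1.20 in the 9 libraries) and fitted in 1 model of all 24 libraries, with a mean for each group, by edgeR 4.0.16 (limma 3.58.1, R 4.3.3). Contrasts were tested by quasi-likelihood F tests, with Benjamini-Hochberg adjustment across the genes tested, and called under 0.05. The SE is the log2 fold change over the square root of F. The stricter rule adjusted the larger of the p-values against co and against hy5, set to 1 where signs differed. CPM used scaled library sizes.

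Deviations from group means correlated between same-numbered libraries of the 3 mutants at 0.208 to 0.825, all over 0.1. Replicate numbers were therefore treated as pairs in the blocked fit. Values given without mention of the block come from the main fit, which leaves this pairing out. Blocked values stand beside the counts and calls they change. In simulated counts over 13569 genes, the comparison of uvr8 with co and hy5 recovered 55% of 2-fold and 89% of 4-fold changes, with 7 false among 151 calls. The alternatives were RLE scaling, no filter, DESeq2 1.42.0, only the groups compared, the replicate block, no libraries numbered 1, and leaving out each library.

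Members and lists were chosen with earlier results of these data known. Of 226 list genes 215 were in the table and 209 tested. ELI3, LHCB4, PSAG, PSBR, PRX2, PFR1, GLN2, LAO1, FEA2, CYCB1 and GSM1 were not analysed here. The text names all tested UV-B signalling and quenching genes by value or range, up to 4 called genes per list with the smallest adjusted p, and the 10 largest differences each way by the stricter rule at a mean of 1 CPM or more, with at most 2 unnamed identifiers each way. Other named genes complete a list described member by member or were chosen once values had been seen. The RefSeq table of assembly v5.5 holds 0 symbols, so names could not be checked, and it served for gene order only. It matched 13245 genes of the count table.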

Additional observations from a re-analysis of the deposited data

Results flagged for a closer look

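For 12 named genes or list members the difference of uvr8 from the mean of co and hy5 was not the same without UV-B as under UV-B, by a test of the difference in the same edgeR fit that was added after the data were seen (413 of 13613 genes called). Values are the baseline log2 fold change minus that under UV-B. The difference was 7.78 for the quencher LHCSR1 (adjusted p = 0.00200), 6.08 for PSBS2 (adjusted p = 0.00166), 5.74 for PSBS1 (adjusted p = 0.000292) and 5.40 for LHL4 (adjusted p = 0.00406). It was 2.29 for SPA1 (adjusted p = 3.92e-06) and 2.19 for COP1 (adjusted p = 2.35e-05), the subunits of the ligase that UVR8 binds. In the list of photosystem II assembly and plastid quality control it was 2.46 for TEF5, 2.23 for the protease FTSH1, 2.15 for HCF136, 2.10 for FTSH2 and 1.94 for RBD1 (adjusted p 1.05e-06 to 9.92e-06). PGR5, of cyclic electron flow, gave 2.00 (adjusted p = 4.98e-05). All of these except PGR5 were not called at baseline and were lower in uvr8 than in the mean of co and hy5 under UV-B. For each of the 12 genes, the means of co and of hy5 were higher with UV-B than without it. Mean COP1 went from 9.67 to 31.3 CPM in co and from 11.0 to 69.3 CPM in hy5, beside 9.56 to 9.41 CPM in uvr8. Mean LHCSR1 also fell within uvr8, from 16.3 CPM without UV-B to 2.24 CPM with it. PGR5 was higher in uvr8 at baseline (0.87) and lower under UV-B (−1.12). In the UV-B libraries PGR5 was at 347, 245 and 253 CPM in uvr8, 367, 395 and 537 CPM in co, and 776, 884 and 954 CPM in hy5.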

How the results depend on the processing

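RLE scaling (1026 genes called against the mean, 227 by the stricter rule) and no filter (998 and 189) kept every count within 1.5 times. Counts below run in the order uvr8 against the mean, against co, against hy5, co apart, hy5 apart, uvr8 under UV-B, uvr8 against WT, and the stricter rule. With replicate numbers paired by a block they were 2683, 2462, 1403, 725, 155, 2811, 2173 and 750, and all 1047 genes called against the mean remained. Against the mean, the block changed the calls of HSP70A, HSP90B, HSP90C and FOX1. Of the genes given above with values by library, no other changed. LHCBM9, HYDA1, GLN1 and the neighbouring genes given without values by library were not followed one by one in that fit. By the stricter rule the block added UVR8, VIPP1, HSP70B, CLPB3, HSP60A, HSP90C, CHLM1 and FBA3. DESeq2 gave 1606, 1425, 852, 445 and 130, then 1216 against WT and 490 by the stricter rule. Without the libraries numbered 1, uvr8 against co gave 1279, against hy5 706, co apart 71 and the stricter rule 315. With only the groups compared, uvr8 against co gave 550, against hy5 116, hy5 apart 49 and uvr8 against WT 352. In that setting uvr8 against the mean gave 1232, of which 817 were among the 1047 of the main fit. The stricter rule gave 170 there, of which 106 were among the 201 of the main fit. Leaving out 1 library gave 267 to 1050, 204 to 832, 123 to 571, 20 to 112, 14 to 37, 992 to 1442, 379 to 883 and 54 to 342. The lowest values came without uvr8 library 2 (under UV-B, its UV-B library 2), except co apart (co library 3) and hy5 apart (hy5 library 2). These fits have fewer libraries; the cause of the other moves was not tested. No gene given with values by library changed sign past the threshold. Transcripts at or near 0 in uvr8 are limited by depth, with 3 counts over the group as the floor.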

Other observations

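Some genes set uvr8 apart from co and hy5 but not from WT. Cre14.g621200, picked after its values were seen, was at 32.4, 21.2 and 28.8 CPM in uvr8 and at 47.2, 22.3 and 22.5 CPM in WT, against 2.98 to 3.23 CPM in co and 1.64 to 1.72 CPM in hy5. It was higher in uvr8 than in the other mutants (3.59, adjusted p = 5.08e-07) and was not called against WT (−0.16, adjusted p = 0.866).

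GAS28 (Cre11.g481600), a cell wall protein gene known from gametes, went the other way. It was at 469.8, 404 and 555 CPM in uvr8, at 284, 265 and 298 CPM in co and at 453, 567 and 551 CPM in hy5, against 9.54, 17.3 and 13.4 CPM in WT. All 9 mutant libraries lay far above the 3 of WT. GAS28 was not called between uvr8 and the other mutants (0.31, adjusted p = 0.567) and was higher in uvr8 than in WT (5.15, adjusted p = 2.56e-07).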
